A study of Mus musculus with 15 samples.

Results

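The genes described here mark pericytes and vascular smooth muscle cells, the mural cells that wrap small vessels. They were the 10 rows of the deposited count table with the symbols Pdgfrb, Rgs5, Kcnj8, Abcc9, Notch3, Acta2, Tagln, Myh11, Vtn and Des, of 33321 genes in all. Of the 10 genes, 9 passed the filter on low counts and were among the 16795 genes tested, and Tagln did not pass it. They were picked by symbol, with earlier results of these data known.

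Pericytes share a basement membrane with the endothelium of brain capillaries, and smooth muscle cells form the contractile layer of arteries and arterioles. Endothelial cells recruit both by releasing PDGF-B, which acts on the receptor PDGFR-beta, and Notch3 signalling keeps smooth muscle cells in their mature state. In white matter these cells set the width of vessels and support the blood-brain barrier.

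Mouse corpus callosum, the large bundle of myelinated axons between the hemispheres, was sequenced in 15 libraries, 3 in each of 5 groups. Sham-Ipsil was tissue around a saline injection in sham operated mice. LPC-Ipsil was tissue injured by lysophosphatidylcholine (LPC), a lipid that strips myelin, and LPC-Contra was the opposite side of LPC-treated mice. LNIO-Ipsil was tissue injured by L-NIO, which blocks the nitric oxide synthase of endothelium and serves as a model of white matter stroke, and LNIO-Contra was its opposite side. Injured and opposite tissue was collected at day 4, and the labels name no separate day for the sham tissue. No group came from the opposite side of sham mice. In LPC-Contra or LNIO-Contra against Sham-Ipsil, the agent therefore cannot be told apart from the side and the saline injection. Strain, age and sex are not given in the labels used here, and no label says whether each library was a mouse of its own. The p-values therefore describe only how these samples spread, and that spread may be technical.

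Library totals ran from 14896445 to 20916606 counts. Over all libraries, 10 oligodendrocyte genes had a summed level of 16410 to 32220 CPM (counts scaled to the library total with TMM factors). The summed level of 10 neuronal genes was 5563 to 8728 CPM. With no other tissue to set beside them, these levels do not test the tissue label. LPC-Ipsil replicate 3 stood apart from its group in 10 microglial genes, with a summed level of 472 CPM against 3489 and 2156 CPM in the other LPC-Ipsil libraries and 325 to 386 CPM in Sham-Ipsil. LNIO-Ipsil replicate 1 and LNIO-Contra replicate 1 had the largest shares of counts from mitochondrially encoded genes, 15.9% and 13.7%, against 8.74% to 11.2% in the other 13 libraries. Values without these libraries are given beside the results that they move most. In bulk tissue, fewer cells of a type and less RNA per cell cannot be told apart.

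Between genes, levels were compared as FPKM, fragments per kilobase scaled to the library total, which allows for gene length. The secreted protein gene Vtn had the highest median over the 15 libraries, 22.7 FPKM, followed by Rgs5 at 15.5 FPKM and Pdgfrb at 4.80 FPKM. Acta2 had a median of 2.01 FPKM, Notch3 1.43, Abcc9 0.997 and Kcnj8 0.965. The 3 lowest were the muscle filament genes Myh11 at 0.343 FPKM, Des at 0.168 and Tagln at 0.143. The levels of Rgs5 and Vtn overlapped across libraries, from 12.2 to 25.8 FPKM and from 15.2 to 30.3 FPKM. Abcc9 and Kcnj8, whose products form a single channel, also overlapped, from 0.605 to 1.32 FPKM and from 0.646 to 1.41 FPKM.

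Every one of the 9 tested genes had a higher fitted mean in LPC-Ipsil than in Sham-Ipsil, by 0.36 to 0.56 on the log2 scale, yet none passed the test. The median log2 fold change of the 9 genes was 0.49, beside 0.01 over all genes tested, of which 51.4% were positive. By edgeR's quasi-likelihood test with Benjamini-Hochberg adjustment over all genes, 0 of 9 genes were called at an adjusted p under 0.05, where 5.19% of all tested genes were called. At an unadjusted p under 0.05 there was 1 gene of 9, Pdgfrb, where 3391 of 16795 genes had one. DESeq2 and limma called 0 of 9 as well. Of all genes DESeq2 called 1512, and limma 51 and 3. In 4 of 9 genes (Pdgfrb, Notch3, Kcnj8 and Abcc9) each LPC-Ipsil library lay above each Sham-Ipsil library, against a background of 14.0% of tested genes. Without LPC-Ipsil replicate 3 the median was 0.60, and edgeR called 0 of the 9 genes, where 1646 of 17119 genes were called. Without any 1 of the Sham-Ipsil libraries, or without LPC-Ipsil replicate 1 or 2, edgeR called at most 1 gene of all. Fitted with only the groups compared, it called 0 of all. Without Sham-Ipsil replicate 2 the median was 0.26. Leaving out LPC-Ipsil replicate 3 gave 0.63 ± 0.28 for Notch3, 0.60 ± 0.30 for Abcc9, 0.50 ± 0.32 for Kcnj8, 0.52 ± 0.25 for Vtn and 0.51 ± 0.27 for Rgs5. The filament genes Acta2, Myh11 and Des then had 0.82, 0.75 and 0.70. All comparisons with Sham-Ipsil share its 3 libraries.

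**Figure D1:**
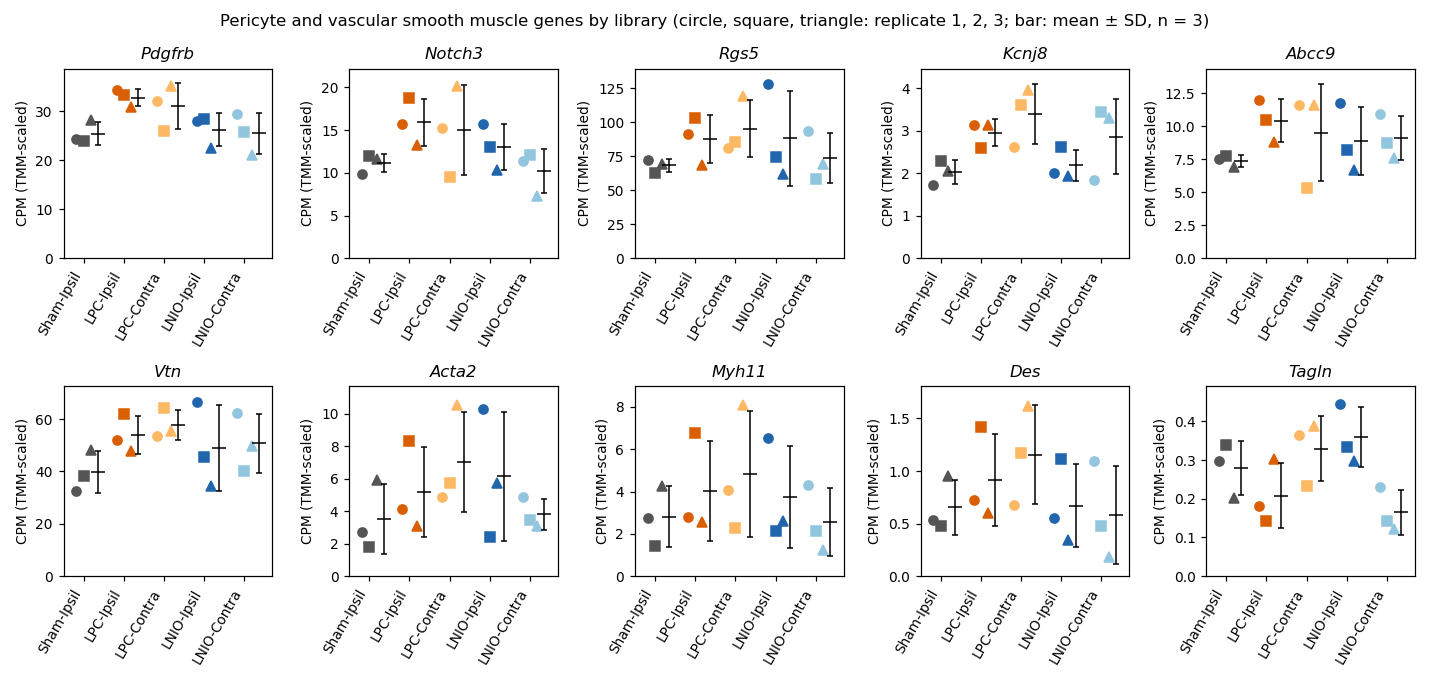
Level of each gene in every library, in TMM-scaled CPM on a linear axis from 0, by group (circle, square and triangle for replicates 1, 2 and 3) with the mean and SD of 3 libraries beside them. All LPC-Ipsil points of Pdgfrb (30.8 to 34.2 CPM) lie above all Sham-Ipsil points (23.9 to 28.1 CPM). The points of Acta2, Myh11 and Des spread widely within most groups, those of Acta2 least in LNIO-Contra (3.11 to 4.89 CPM).

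Pdgfrb encodes the receptor through which PDGF-B recruits and maintains pericytes. In CPM, replicates 1 to 3 had 24.2, 23.9 and 28.1 in Sham-Ipsil, 34.2, 33.2 and 30.8 in LPC-Ipsil, and 32.0, 25.9 and 35.2 in LPC-Contra. The LNIO-Ipsil libraries had 27.9, 28.4 and 22.4 CPM and the LNIO-Contra libraries 29.5, 25.8 and 21.2 CPM. LPC-Ipsil was the highest and tightest group, and it did not overlap Sham-Ipsil or LNIO-Ipsil. The difference between LPC-Ipsil and Sham-Ipsil was 0.36 ± 0.15 (log2 fold change ± SE; edgeR adjusted p = 0.181), a 1.29-fold higher level with a 95% interval of 0.05 to 0.68 on the log2 scale. Without LPC-Ipsil replicate 3 it was 0.41 ± 0.17 (edgeR adjusted p = 0.157). LNIO-Ipsil and LNIO-Contra differed from Sham-Ipsil by 0.04 and 0.00, with intervals of -0.27 to 0.36 and -0.32 to 0.32. Pdgfrb varied least of the 10 genes, with 1.66-fold between the highest and the lowest library.

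Notch3 encodes a Notch receptor that in the adult vessel wall is found mainly on mural cells. Its libraries had 9.92, 12.0 and 11.6 CPM in Sham-Ipsil, 15.7, 18.8 and 13.3 in LPC-Ipsil, and 15.3, 9.57 and 20.2 in LPC-Contra. In LNIO-Ipsil they had 15.7, 13.1 and 10.3 CPM and in LNIO-Contra 11.3, 12.1 and 7.31 CPM. Each LPC-Ipsil library lay above each sham library, whereas LPC-Contra held both the highest library and a library below all sham libraries. The log2 difference of LPC-Ipsil from Sham-Ipsil was 0.52 ± 0.26 (edgeR adjusted p = 0.278; interval -0.03 to 1.06), and that of LNIO-Ipsil was 0.22 ± 0.26 (interval -0.32 to 0.77). An antisense gene, Gm17276, covers 6.03% of the exonic bases of Notch3 in GENCODE M21, and without a known strand setting reads from that stretch cannot be told apart.

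Rgs5 encodes a regulator that shortens G protein signals and is among the most abundant transcripts of pericytes. Its levels were 72.7, 63.0 and 69.5 CPM in Sham-Ipsil, 91.5, 103 and 68.9 CPM in LPC-Ipsil, and 81.4, 85.7 and 119 CPM in LPC-Contra. The LNIO-Ipsil libraries had 128, 74.7 and 61.9 CPM and the LNIO-Contra libraries 94.0, 58.3 and 69.6 CPM. LPC-Contra lay wholly above Sham-Ipsil, and LPC-Ipsil did but for replicate 3. In LNIO-Ipsil, replicate 1 was the highest of all 15 libraries and replicate 3 lay below every sham library. The log2 differences from Sham-Ipsil were 0.36 ± 0.25 in LPC-Ipsil, 0.48 ± 0.25 in LPC-Contra and 0.37 ± 0.25 in LNIO-Ipsil, and none was called. Without LNIO-Ipsil replicate 1, the library with the largest mitochondrial share, the LNIO-Ipsil difference was 0.00 ± 0.22, and the part of that share in the result was not tested.

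Kcnj8 and Abcc9 encode Kir6.1 and SUR2, the pore and the regulatory subunit of the ATP-sensitive potassium channel of mural cells. Kcnj8 had 1.73, 2.30 and 2.06 CPM in Sham-Ipsil, 3.14, 2.60 and 3.14 in LPC-Ipsil, 2.61, 3.62 and 3.96 in LPC-Contra, 2.01, 2.61 and 1.93 in LNIO-Ipsil, and 1.84, 3.45 and 3.29 in LNIO-Contra. Every library of both LPC groups lay above every sham library. The log2 difference from Sham-Ipsil was 0.74 ± 0.28 in LPC-Contra (edgeR adjusted p = 0.496) and 0.54 ± 0.28 in LPC-Ipsil (adjusted p = 0.299). Kcnj8 rested on 29 to 73 counts per library.

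Abcc9 had 7.53, 7.78 and 6.89 CPM in Sham-Ipsil, 12.0, 10.4 and 8.77 in LPC-Ipsil, 11.6, 5.31 and 11.6 in LPC-Contra, 11.8, 8.18 and 6.70 in LNIO-Ipsil, and 10.9, 8.75 and 7.62 in LNIO-Contra. Again each LPC-Ipsil library exceeded each sham library, but LPC-Contra replicate 2 was the lowest of all 15. The log2 differences from Sham-Ipsil were 0.49 ± 0.28 in LPC-Ipsil (edgeR adjusted p = 0.344) and 0.36 ± 0.28 in LPC-Contra. The other channel genes of the family, Kcnj11 for Kir6.2 and Abcc8 for SUR1, are the forms best known from neurons and endocrine cells. Of these, 0 of 2 were called in any comparison by edgeR, and their LPC-Ipsil differences were -0.02 ± 0.20 and -0.52 ± 0.20 (adjusted p = 0.966 and 0.161), below Sham-Ipsil.

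Vtn encodes vitronectin, a matrix protein that brain pericytes secrete and that binds integrins on endothelial cells. Its levels were 32.5, 38.3 and 48.4 CPM in Sham-Ipsil, 52.0, 62.0 and 47.7 CPM in LPC-Ipsil, and 53.5, 64.4 and 55.4 CPM in LPC-Contra. LNIO-Ipsil libraries had 66.6, 45.5 and 34.4 CPM and LNIO-Contra libraries 62.5, 40.2 and 49.6 CPM. LPC-Contra lay wholly above Sham-Ipsil, and both LNIO groups overlapped it. The log2 difference from Sham-Ipsil was 0.54 ± 0.22 in LPC-Contra (edgeR adjusted p = 0.500) and 0.44 ± 0.22 in LPC-Ipsil (adjusted p = 0.289). In LNIO-Ipsil it was 0.30 ± 0.22, and 0.01 ± 0.21 without replicate 1.

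Acta2 and Myh11 encode smooth muscle actin and smooth muscle myosin heavy chain, the contractile filaments of arterial smooth muscle. Genes of this kind are classically activated by serum response factor with myocardin through the CArG box, a motif of 10 bases that starts with CC, ends with GG and has 6 A or T bases between. The 250 bases upstream of the RefSeq start (build GRCm38.p6, matched by symbol) were searched for this motif with at most 1 other base among the central 6. The motif reads the same way on both strands, so a single search covers both. The RefSeq promoters held 7 of the member genes, of which 1 had a match, Acta2, and 22 of the other contractile genes, of which 4 had a match, against 8.59% of 32851 promoters. Myh11, Tagln and Pdgfrb had no entry among these promoters, so they were not searched. Acta2 had a pair of matches, as did 0.67% of promoters, and each has 1 central base other than A or T. Its windows are shown beside those of Myl9, the myosin regulatory light chain gene, because 1 Myl9 box holds only A and T between CC and GG, as 1.47% of promoters do. Capitals mark the box.
Acta2, 84 to 75 bases upstream, chr19:34255438-34255467, minus strand: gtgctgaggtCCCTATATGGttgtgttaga
Acta2, 34 to 25 bases upstream, chr19:34255388-34255417, minus strand: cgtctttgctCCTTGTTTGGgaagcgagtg
Myl9, 161 to 152 bases upstream, chr2:156775293-156775322, plus strand: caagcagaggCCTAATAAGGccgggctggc
Myl9, 99 to 90 bases upstream, chr2:156775355-156775384, plus strand: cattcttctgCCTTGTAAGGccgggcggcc
These are matches of letters only. Myl9 was chosen for its sequence, outside the rule for named genes, and its mean level was 7.06 ± 1.08 CPM in Sham-Ipsil and 10.3 ± 3.20 CPM in LPC-Ipsil (SD, n = 3).

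Acta2 had 2.75, 1.83 and 5.93 CPM in Sham-Ipsil, 4.17, 8.32 and 3.08 in LPC-Ipsil, 4.85, 5.72 and 10.6 in LPC-Contra, 10.3, 2.39 and 5.75 in LNIO-Ipsil, and 4.89, 3.45 and 3.11 in LNIO-Contra. Its highest and lowest library differed 5.79-fold, and all groups overlapped Sham-Ipsil. The largest log2 differences from Sham-Ipsil were 0.99 ± 0.54 in LPC-Contra (edgeR adjusted p = 0.554; interval -0.17 to 2.15) and 0.80 ± 0.54 in LNIO-Ipsil (adjusted p = 0.754; interval -0.36 to 1.95). Without LNIO-Ipsil replicate 1 the latter was 0.22 ± 0.55. The LPC-Ipsil value of 0.56 ± 0.54 ran from 0.03 without LPC-Ipsil replicate 2 to 1.12 without Sham-Ipsil replicate 3 when 1 library was left out.

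Myh11 was high in the same libraries. It had 2.75, 1.42 and 4.28 CPM in Sham-Ipsil, 2.78, 6.76 and 2.54 in LPC-Ipsil, 4.07, 2.28 and 8.10 in LPC-Contra, 6.52, 2.11 and 2.63 in LNIO-Ipsil, and 4.32, 2.13 and 1.22 in LNIO-Contra. In LPC-Ipsil replicate 2, LPC-Contra replicate 3 and LNIO-Ipsil replicate 1, both Acta2 and Myh11 were the highest of their group. The LPC-Ipsil difference from Sham-Ipsil was 0.51 ± 0.61 (edgeR adjusted p = 0.703; interval -0.80 to 1.82), and it was -0.09 without LPC-Ipsil replicate 2.

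Des encodes desmin, the intermediate filament of muscle that pericytes also hold. It had 3 to 30 counts per library. Its levels were 0.538, 0.473 and 0.956 CPM in Sham-Ipsil, 0.724, 1.42 and 0.605 in LPC-Ipsil, 0.678, 1.17 and 1.62 in LPC-Contra, 0.557, 1.11 and 0.347 in LNIO-Ipsil, and 1.09, 0.473 and 0.183 in LNIO-Contra. The groups overlapped throughout, with 8.86-fold between the highest and the lowest library. Its LPC-Ipsil and LPC-Contra differences from Sham-Ipsil were 0.48 ± 0.59 and 0.78 ± 0.59, with intervals that reach from -0.79 to 1.74 and from -0.48 to 2.04. The antisense gene Gm15179, with 0 to 3 counts per library, covers 5.86% of its exonic bases.

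Tagln encodes transgelin, an actin-binding protein of smooth muscle. With 2 to 8 counts per library it did not pass the filter on low counts. Its counts were 5, 5 and 4 in Sham-Ipsil, 3, 3 and 5 in LPC-Ipsil, 7, 4 and 6 in LPC-Contra, 8, 6 and 6 in LNIO-Ipsil, and 4, 3 and 2 in LNIO-Contra. The summed counts of the 3 libraries were 14 in Sham-Ipsil, 11 in LPC-Ipsil, 17 in LPC-Contra, 20 in LNIO-Ipsil and 9 in LNIO-Contra. As CPM these were 0.272 (95% exact Poisson interval 0.149 to 0.457), 0.203 (0.101 to 0.363), 0.325 (0.189 to 0.521), 0.363 (0.222 to 0.561) and 0.163 (0.0743 to 0.309). The intervals cover counting error only, and all 5 overlap. By library, LNIO-Ipsil lay wholly above LNIO-Contra in Tagln, and LNIO-Contra wholly below LPC-Contra. The latter was narrow, with 0.230 CPM in LNIO-Contra replicate 1 and 0.234 CPM in LPC-Contra replicate 2, both from 4 counts. Of the 16795 tested genes, which leave out Tagln, 7.91% and 4.67% were separated in these ways, and 0 of the 9 tested members were. Fitted with no filter on low counts, Tagln differed by 1.09 ± 0.60 between the LNIO sides and by -0.97 ± 0.61 between LNIO-Contra and LPC-Contra (edgeR adjusted p = 0.971 and 0.999). In that fit it was not called in any comparison, and its unadjusted p was under 0.05 in the interaction of side and agent alone (1.77 ± 0.84, edgeR adjusted p = 1). In GENCODE M21, 62.4% of the exonic bases of Tagln lie under the antisense gene Gm48529 and 5.43% under Pcsk7 on the opposite strand, which had 386 to 651 counts per library, so reads of Tagln are uncertain.

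**Figure D2:**
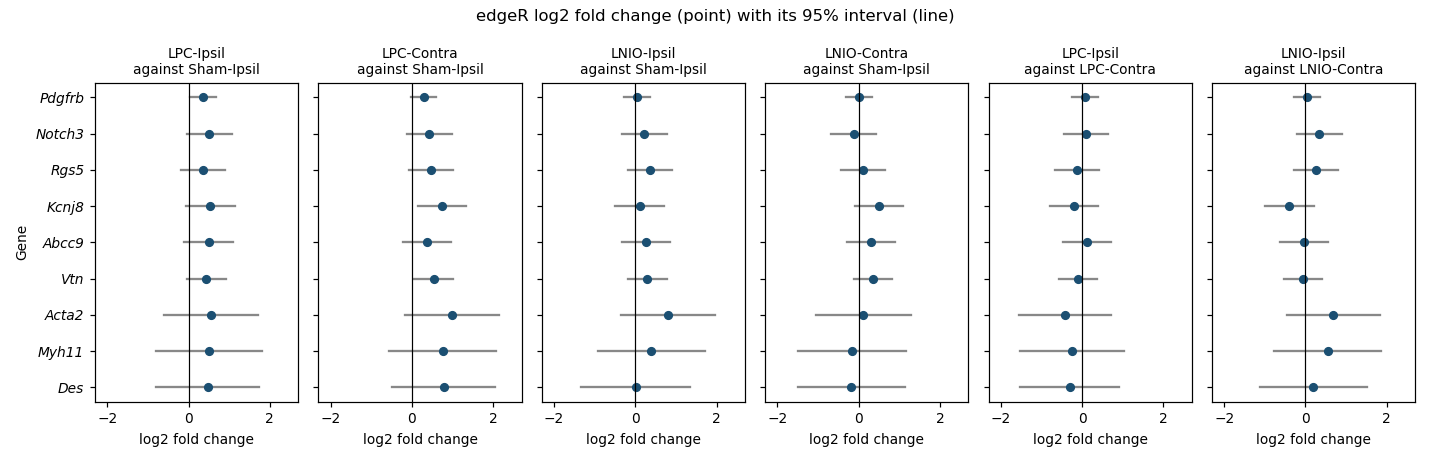
Fitted log2 fold change (point) with its 95% interval (line) for the 9 tested genes in 6 comparisons, with 0 marked. All points lie right of 0 for both LPC groups against Sham-Ipsil (0.36 to 0.56 for LPC-Ipsil and 0.29 to 0.99 for LPC-Contra), and the lines of Acta2, Myh11 and Des are the widest.

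Set against the saline site, the side opposite the LPC injection had differences of much the same size as the injected side. With no opposite side of sham mice, agent, side and injection cannot be told apart there. In LPC-Contra against Sham-Ipsil all 9 genes were positive, by 0.29 to 0.99, with a median of 0.54 beside 0.02 over all genes. Each LPC-Contra library lay above each sham library in 3 of 9 genes, Rgs5, Kcnj8 and Vtn, where 7.06% of all tested genes did. By edgeR 0 of 9 genes were called, where 0.00595% of all genes, a single gene, were called. DESeq2 and limma also called 0 of 9, and of all genes they called 28 and 1. At an unadjusted p under 0.05 edgeR had 2 of 9, where 1624 of 16795 genes had one. LPC-Contra replicate 3 was the highest of all 15 libraries for Pdgfrb, Notch3, Kcnj8, Acta2, Myh11 and Des. Without it the median was 0.29. Without LPC-Contra replicate 1, 2 or 3, edgeR had 2, 4 and 1 of 9 genes at an unadjusted p under 0.05. Of all genes, 2099, 1356 and 1932 then had one. Between the sides of LPC-treated brain no gene passed the test. LPC-Ipsil minus LPC-Contra had a median of -0.12, 3 of 9 genes were positive, and edgeR called 0 of 9 (background 0%). At an unadjusted p under 0.05 there were 0 of 9, where 2036 of 16795 genes had one. The differences ran from -0.43 in Acta2 to 0.13 in Abcc9, and the interval for Pdgfrb was -0.24 to 0.39. Without LPC-Contra replicate 3 the median was 0.04.

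After L-NIO the differences from sham were smaller in the fit, except in Acta2 and Rgs5 of the injected side. All 9 were positive in LNIO-Ipsil against Sham-Ipsil, by 0.01 to 0.80, with a median of 0.26 beside -0.02 over all genes. In 0 of 9 genes did LNIO-Ipsil lie wholly above Sham-Ipsil (background 10.1%), and edgeR called 0 of 9 (background 0%). DESeq2 and limma also called 0 of 9, and of all genes they called 237 and 1. At an unadjusted p under 0.05 edgeR had 0 of 9, beside 1489 of 16795 genes. Replicate 1 decided this median: without it the median was 0.01, and the genes ran from -0.25 in Myh11 to 0.22 in Acta2. On the opposite side, LNIO-Contra minus Sham-Ipsil had a median of 0.11 with 6 of 9 genes positive. EdgeR called 0 of 9 (background 0%), and 0 of 9 lay wholly above sham (background 5.01%). At an unadjusted p under 0.05 there were 0 of 9, beside 457 of 16795 genes. Kcnj8 had the highest value there, 0.50 ± 0.28 (interval -0.10 to 1.09), and Des the lowest, -0.19 ± 0.62. Without LNIO-Contra replicate 1 the median was -0.11, Kcnj8 was 0.73 ± 0.26 and Des -0.97 ± 0.66.

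The injured and the opposite side after L-NIO differed by a median of 0.19, with 6 of 9 genes positive and 0 called by edgeR (background 0%). At an unadjusted p under 0.05 there were 0 of 9, beside 1021 of 16795 genes. Acta2 (0.69, interval -0.46 to 1.84), Myh11 (0.55) and Notch3 (0.34) were higher on the injured side in the fit, and Kcnj8 (-0.39) was lower. Without LNIO-Ipsil replicate 1 the median was -0.10, with Acta2 at 0.11, Myh11 at -0.10 and Notch3 at 0.19. Without LNIO-Contra replicate 1 the median was 0.44, with Acta2 at 0.93 and Myh11 at 1.17. Libraries with the same number deviated together in these groups, so the comparison was also made within the 3 pairs, an alternative chosen after seeing the data. The labels do not say whether the libraries of a pair came from the same mouse. Within pairs 684 of 16196 genes were called (4.22%), against 0 in the fit without pairs. Of the 8 member genes tested there, still 0 were called. Among them 1, Notch3, had an unadjusted p under 0.05, where 2068 of the 16196 genes had one. Notch3 then had 0.36 ± 0.16 (edgeR adjusted p = 0.319), Myh11 0.55 ± 0.28 (adjusted p = 0.445) and Kcnj8 -0.36 ± 0.28 (adjusted p = 0.690).

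The injured sides were then set against each other. LNIO-Ipsil minus LPC-Ipsil was -0.32 ± 0.15 for Pdgfrb (edgeR adjusted p = 0.594), and each LNIO-Ipsil library lay below each LPC-Ipsil library, as in 7.61% of tested genes. Pdgfrb was the single gene of 9 with an unadjusted p under 0.05, where 1409 of 16795 genes had one. Of the 9, 0 were called by edgeR, DESeq2 or limma, which called 0, 18 and 2 of all genes. The median was -0.23, 2 of 9 genes were positive, and the median was -0.34 without LPC-Ipsil replicate 3, -0.35 without LNIO-Ipsil replicate 1 and -0.03 without LPC-Ipsil replicate 2. On the opposite sides, LNIO-Contra lay below LPC-Contra in the fit for all 9 genes, with a median of -0.37 and values from -0.97 in Des to -0.06 in Abcc9. Without LPC-Contra replicate 3 this median was -0.22, and without LNIO-Contra replicate 1 it was -0.58. Of these 9 genes 0 were called by edgeR (background 0%), and 0 had an unadjusted p under 0.05, beside 576 of 16795 genes. The closest was Notch3 at -0.55 ± 0.26 (edgeR adjusted p = 0.9995; interval -1.09 to 0.00). Whether the difference between sides depended on the agent was tested as an interaction. It had a median of 0.25 and 0 called genes by edgeR (background 0%). At an unadjusted p under 0.05 there were 0 of 9, beside 171 of 16795 genes. The largest interaction was in Acta2, 1.12 ± 0.75 (interval -0.50 to 2.73, edgeR adjusted p = 1), and 0.56 ± 0.73 there without LNIO-Ipsil replicate 1.

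**Figure D3:**
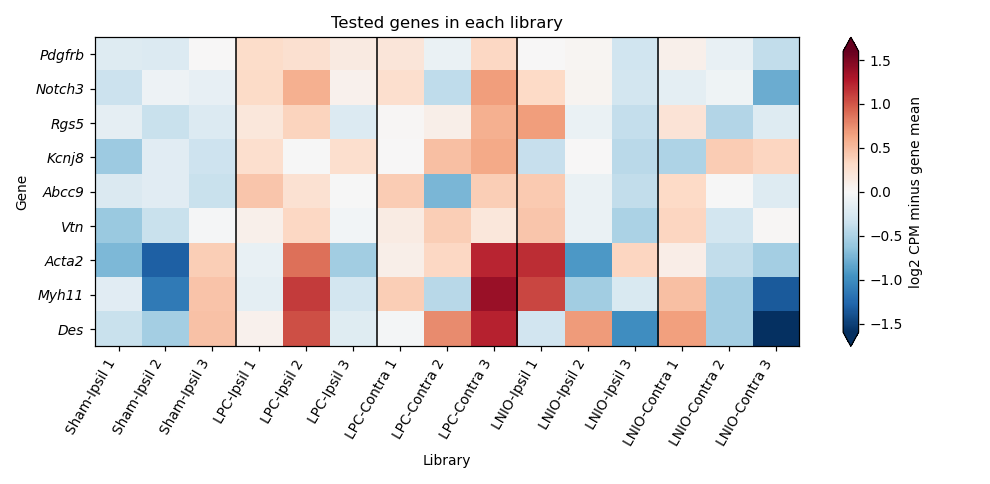
Level of the 9 tested genes in each of the 15 libraries as log2 CPM minus the gene's mean, with vertical lines between groups and red above and blue below the mean. LPC-Contra replicate 3 is red for all 9 genes, and the widest swings between libraries are in Acta2, Myh11 and Des.

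Much of the spread ran between libraries of one group. The mean of the 9 genes per library, as log2 CPM relative to each gene's mean, was -0.36, -0.47 and 0.02 in Sham-Ipsil, 0.15, 0.51 and -0.09 in LPC-Ipsil, and 0.16, 0.03 and 0.70 in LPC-Contra. It was 0.37, -0.12 and -0.34 in LNIO-Ipsil and 0.16, -0.22 and -0.51 in LNIO-Contra. The lowest library of all was LNIO-Contra replicate 3 and the highest LPC-Contra replicate 3. Summed over 14 endothelial genes, LPC-Contra replicate 3 was also the highest at 553 CPM, and LNIO-Ipsil replicate 1, at 437 CPM, was the highest of its group. Other libraries ranked otherwise: LNIO-Contra replicate 3 had 308 CPM, above replicate 2 at 276 CPM. Sham-Ipsil replicate 3 had 316 CPM, below replicate 1 at 319 CPM.

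Across the 15 libraries, 35 of 36 gene pairs had a positive Pearson correlation of log2 CPM, with a median r of 0.56. These are descriptions over libraries that share groups, depth and tissue makeup. The receptor pair Pdgfrb and Notch3 had the highest r, 0.87, and the filament pair Acta2 and Myh11 the next, 0.86. Rgs5 went with Myh11 (0.79), Vtn (0.78) and Acta2 (0.75). With the group means removed, 28 of 36 pairs were positive with a median of 0.50, and r was 0.84 for Pdgfrb with Notch3 and 0.85 for Acta2 with Myh11. Kcnj8 stood apart from the rest: its r ran from -0.13 with Myh11 to 0.28, and from -0.48 to -0.09 within groups. With Abcc9, its channel partner, r was 0.04, and -0.32 within groups, where Abcc9 itself went with Notch3 (0.82) and Pdgfrb (0.76).

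**Figure D4:**
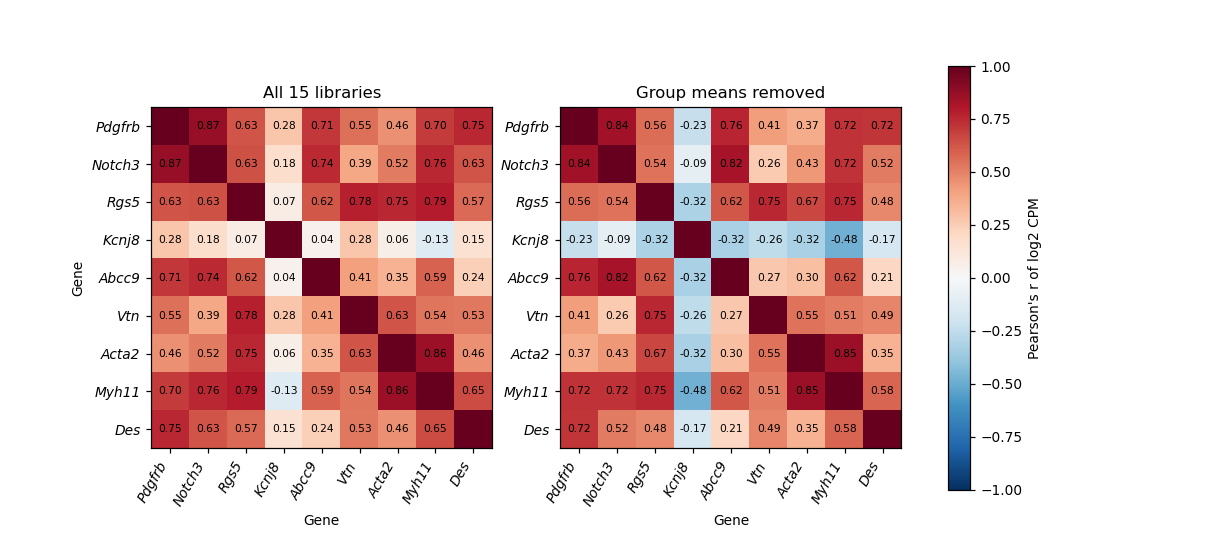
Pearson's r of log2 CPM between the 9 tested genes, over all 15 libraries (left) and after the mean of each group was subtracted (right), on a colour scale from -1 to 1. Pdgfrb with Notch3 (0.87 and 0.84) and Acta2 with Myh11 (0.86 and 0.85) are high in both panels, and the Kcnj8 row is pale on the left and below 0 on the right.

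Of 14100 other genes above a floor on the average log2 CPM of 1, those most like the mean of the 9 genes over the 15 libraries were Tns2 (r = 0.89), Pecam1 (0.88), Fbrsl1 (0.88), Sox18 (0.87), Klf4 (0.87), Adgre5 (0.86), Sema3g (0.86), Lef1 (0.85), Cdh5 (0.85) and Adgrf5 (0.84). Pecam1, Cdh5 and Sox18 are known from endothelium. For single members, Pdgfrb was most like Zfp592 (0.95), Rgs5 like Lef1 (0.92), Notch3 like the basement membrane gene Nid1 (0.92), Acta2 like the gap junction gene Gjc1 (0.85) and Myh11 like Golim4 (0.88). Abcc9 was most like Fhip2a (0.90), Kcnj8 like Zfp689 (0.88), Vtn like Nfkbid (0.90) and Des like Usp21 (0.89).

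The other genes of the pathways were read from lists in LPC-Ipsil against Sham-Ipsil, where 5.19% of all genes were called. Of 6 PDGF ligand and receptor genes 0 were called by edgeR (median 0.30), and the ligand gene Pdgfb had 15.3 ± 3.21 CPM in Sham-Ipsil and 23.1 ± 5.94 CPM in LPC-Ipsil (log2 0.60 ± 0.23, adjusted p = 0.160). Without LPC-Ipsil replicate 3 Pdgfb was called. Of 13 Notch ligand, receptor and target genes 0 were called (median 0.15), with the endothelial receptor gene Notch4 at 0.66 ± 0.32 and Notch2 at 0.46 ± 0.21 (adjusted p = 0.268 and 0.248). Of 25 other pericyte genes 2 were higher and 0 lower (median 0.39): Cspg4, the proteoglycan NG2 that oligodendrocyte precursors also carry, with 18.2 ± 1.61 and 39.3 ± 15.6 CPM (1.11 ± 0.27, adjusted p = 0.0317), and S1pr3, a sphingosine-1-phosphate receptor gene that other cells also express, with 7.02 ± 0.998 and 35.9 ± 25.7 CPM (2.36 ± 0.50, adjusted p = 0.0245). Both had their lowest LPC-Ipsil library, 25.1 and 8.34 CPM, above the highest sham library, 19.4 and 8.07 CPM, narrowly so for S1pr3. Of all tested genes 14.0% were separated in this way.

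Of 22 tested smooth muscle contractile genes 0 were called by edgeR (median 0.16). At an unadjusted p under 0.05 there were 0 of 22, where 3391 of 16795 genes had one. The lowest adjusted p values were for Crip1 (0.73 ± 0.39, adjusted p = 0.317) and Tpm1 (-0.19 ± 0.10, adjusted p = 0.323). Of 6 tested serum response factor and myocardin factor genes 0 were called (median 0.04). Of 8 tested actin, myosin and transgelin paralogs 0 were called, with Tagln2 closest at 1.46 ± 0.41 (adjusted p = 0.0545), and without LPC-Ipsil replicate 3 Tagln2 and Actb were called higher. Paralogs of Acta2 have near-identical coding sequence, so the counts of the actin genes, Acta2 included, are uncertain.

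Around the vessel, 1 of 12 basement membrane genes was higher and 0 lower in LPC-Ipsil (median 0.22), Lamb2, a laminin chain gene (19.0 ± 1.58 to 40.0 ± 11.9 CPM, log2 1.08 ± 0.20, edgeR adjusted p = 0.0243). Of 8 genes for vitronectin receptors and partners 3 were higher and 0 lower (median 1.64): Itgb5, an integrin subunit that binds vitronectin (34.1 ± 1.57 to 242 ± 194 CPM, log2 2.83 ± 0.59, adjusted p = 0.0245), and Plau and Plaur, urokinase and its receptor (2.96 ± 0.53 and 2.82 ± 0.61, adjusted p = 0.0243 for both). Microglia also express Itgb5, and all 10 microglial genes were higher in LPC-Ipsil (median 2.39), with a summed level of 472 to 3489 CPM. The part of microglial genes in these results was not tested. Of 14 endothelial genes 2 were higher, Slc2a1 (0.63 ± 0.14, adjusted p = 0.0262) and Tie1 (0.90 ± 0.24, adjusted p = 0.0456), and 0 lower (median 0.58). These list calls rest on few libraries: without any 1 of the 3 Sham-Ipsil libraries, or without LPC-Ipsil replicate 1 or 2, edgeR called 0 genes of the pericyte, basement membrane, vitronectin and endothelial lists, and at most 1 gene of all. Fitted with the 2 groups alone it called 0. Tie1 also lost its call without LPC-Contra replicate 1 or 3, LNIO-Ipsil replicate 1 or 3, or LNIO-Contra replicate 3. In every other comparison edgeR called 0 genes of these lists, and 1 gene of all in LPC-Contra against Sham-Ipsil.

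Markers of other cells in LPC-Ipsil against Sham-Ipsil were read the same way. Fibroblast genes, which perivascular cells share, had 0 of 11 tested called (median 0.39), with a summed level of 235 to 314 CPM in Sham-Ipsil and 339 to 484 CPM in LPC-Ipsil. Of 10 astrocyte genes 3 were higher and 0 lower, of 10 oligodendrocyte genes 0 were called, and of 10 neuronal genes 1, Nefl, was lower. Of 6 tested skeletal muscle genes 1, Tnni2, was higher and 1, Myl1, lower, and the list summed to 9.50 to 11.5 CPM in LPC-Ipsil and 10.3 to 12.2 CPM in Sham-Ipsil. Red blood cell (4 tested), choroid plexus (8) and blood leukocyte (1) lists had 0 called genes. The choroid plexus list spread widely within groups, with summed levels of 44.6 to 1448 CPM in Sham-Ipsil and 49.1 to 555 CPM in LPC-Ipsil. In LPC-Contra it summed to 35.0 to 1091 CPM, highest in replicate 3, where the mean of the 9 member genes was 0.70. The sums were higher still in Sham-Ipsil replicate 2 (1448 CPM) and LNIO-Contra replicate 2 (1255 CPM), where that mean was -0.47 and -0.22. The part of choroid plexus tissue in the member values was not tested. Of 10 blood leukocyte genes, 4 to 6 were at 0 in each LPC-Ipsil and Sham-Ipsil library. In LPC-Contra, where the member genes had their highest median, the 14 endothelial genes had a median of 0.61 with 0 called by edgeR. Of the 14, 10 had an unadjusted p under 0.05, where 1624 of 16795 genes had one. Their summed level was 375 to 553 CPM against 303 to 319 CPM in Sham-Ipsil. The part of a change in endothelial genes in the member values was not tested.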

How the data were processed

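The authors deposited a table of counts, whole reads per gene symbol and library, and a table of FPKM values for the same genes and libraries. Per the submitters' processing notes, reads were processed with HISAT2 2.2.1 and R 4.4.2 on GRCm39. Which program counted them, with what annotation and strand setting, is not given in the sources used here. RNA was extracted with TRIzol, depleted of ribosomal RNA and selected for poly(A), and was sequenced as paired ends, per the labels' protocols. All 15 columns carried a library's name (0 unmatched), and 74 entries repeat a symbol, none of them a member's.

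The test was edgeR 4.0.16's under R 4.3.3 (quasi-likelihood, robust, TMM factors 0.966 to 1.06, filterByExpr by group with minimum count 10 and minimum total 15). All 15 libraries entered 1 fit, with a term for each group and no block. P-values were adjusted by Benjamini-Hochberg over 16795 genes in each of 9 comparisons, and a gene was called at an adjusted p under 0.05. The SE is the fold change over the square root of F, and intervals are 95%. Replicate libraries of a group differed by more than sampling noise (chi-square per degree of freedom 10.1 to 63.7). In LPC-Contra the value was 58.3 and 58.8 for replicate 2 with replicates 1 and 3, and 16.6 between replicates 1 and 3. The script was tested on simulated data.

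The member genes and the gene lists were chosen with earlier results of these data known. All members are named, with up to 4 genes of each list by smallest adjusted p, and the genes of highest Pearson r with the member mean (10) or a member (the first of 3). Overlaps were read from GENCODE M21 and promoters from RefSeq, both on GRCm38 and matched by symbol. Alternatives were DESeq2 1.42.0 size factors and Wald test, no filter, only the groups compared, limma 3.58.1 on log2(FPKM + 0.1) and log2(FPKM + 1), the replicate number as a block, and leaving out each library. Same-numbered libraries deviated together in LNIO-Ipsil and LNIO-Contra (correlations of deviations 0.60, 0.36 and 0.25) and in no other pair of groups did every number.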

Additional observations from a re-analysis of the deposited data

How the results depend on the processing

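In all 9 comparisons edgeR, DESeq2 and limma called 0 of the member genes under every alternative run, including each library left out (0 to 0), the replicate block (0) and the LNIO groups within pairs (0). Medians of the member genes' log2 fold changes kept their sign under every alternative for LPC-Ipsil (0.26 without Sham-Ipsil replicate 2 to 0.60 without LPC-Ipsil replicate 3; 0.48 with the replicate block), LPC-Contra (0.22 by limma on log2(FPKM + 1) to 0.69) and LNIO-Ipsil (0.01 to 0.44) against Sham-Ipsil, for LNIO-Ipsil against LPC-Ipsil (-0.35 to -0.03), LNIO-Contra against LPC-Contra (-0.58 to -0.22) and the interaction (0.03 to 0.46). They changed sign without 1 library for LPC-Ipsil against LPC-Contra (-0.22 to 0.04), LNIO-Ipsil against LNIO-Contra (-0.10 to 0.47) and LNIO-Contra against Sham-Ipsil (-0.11 without LNIO-Contra replicate 1 to 0.25), and the cause was not tested.

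Calls over all genes moved more. LPC-Ipsil against Sham-Ipsil had 871 with all libraries, 652 with the replicate block, 1512 by DESeq2, 524 with no filter, 51 and 3 by limma, 0 with only the groups compared, and 0 to 1646 with a library left out. In the other comparisons with 0 genes called, DESeq2 called 237 in LNIO-Ipsil against Sham-Ipsil, 700 between the LPC sides, 180 between the LNIO sides and 18 in LNIO-Ipsil against LPC-Ipsil, and without LPC-Ipsil replicate 3 edgeR called 398, 950, 380 and 241. With only the groups compared it called 378 in LNIO-Ipsil against Sham-Ipsil and 359 between the LNIO sides. DESeq2 called 28 genes in LPC-Contra against Sham-Ipsil, against 1, and 8 in LNIO-Contra against LPC-Contra, against 0. The replicate block changed no call of a member gene. Depth limits Tagln and Des, with 2 to 30 counts in each library, most.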
